A study of Mus musculus with 8 samples.

Results

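The 10 genes described here encode the enzymes that write, copy and oxidise DNA methylation (Dnmt1, Uhrf1, Dnmt3a, Dnmt3b, Tet1, Tet2, Tet3) and 3 core subunits of Polycomb repressive complex 2 (Ezh2, Ezh1, Eed). They were chosen by gene symbol, and each matched 1 of the 20793 rows of the expression table. The study used neural progenitors from mouse brain of strain FvB/C57BL/6 and concerns FUBP1, a nucleic acid binding protein, in their terminal differentiation. There were 8 libraries of total RNA, given by the authors as FPKM, fragment counts divided by transcript length and by the mapped fragments of the library. FPKM does not retain the number of reads, so the sequencing depth behind each value is unknown.

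The 4 differentiating libraries were 1 with FUBP1 hairpins (FUBP1-D), 1 labelled for CIC, a transcriptional repressor (CIC-D), and 2 non-targeted (NT) libraries named 7 and GFP-D. The 4 proliferating libraries were 1 with FUBP1 hairpins (FUBP1), 1 labelled for CIC (CIC) and 2 NT libraries named TRC and GFP. Proliferating cells were grown in N2 medium with EGF and bFGF at 20 ng/ml each, and differentiating cells were kept for 5 days in neurobasal medium with B27. Lentiviral hairpins were followed by 3 days of puromycin, a step the labels describe for FUBP1. Each knockdown had 1 library per state. The labels do not say whether the libraries came from separate cultures, so the p-values measure a spread that may be technical. That spread comes from differences between the NT libraries of a state, which have different names. Where all 8 libraries are fitted by state and targeted gene, it also holds differences between targeted genes in their response to state.

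In mammals, Dnmt1 copies CpG methylation to the new DNA strand after replication, guided by Uhrf1, which binds CpG sites methylated on only the old strand. Dnmt3a and Dnmt3b methylate sites that carried no mark, and the Tet enzymes oxidise 5-methylcytosine, a step towards its removal. Polycomb repressive complex 2 (PRC2) methylates a histone tail at silenced genes: Ezh2 or Ezh1 is its catalytic subunit, and Eed binds the mark and keeps the enzyme active. In neural tissue Ezh2 is known as the form of dividing progenitors and Ezh1 as a form that persists in cells that have stopped dividing.

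Not all of 9 neural progenitor markers were present in every library: Sox2 lay between 116.2 and 480.4 FPKM and Nes between 36.6 and 97.0 FPKM over the 8 libraries, whereas Hes5 was at most 1.01 FPKM and Prom1 was listed at 0 in at least 1 library. On differentiation the progenitor markers Fabp7 (-2.82) and Hes1 (-2.02) were called lower and Msi1 (1.29) higher in log2(FPKM + 1), by the limma fit described below. The summed level of 8 astrocyte markers was 738.1 to 1124 FPKM in differentiating libraries and 265.7 to 368.7 FPKM in proliferating libraries, and 5 of the 8 were called higher, their part in the results below not tested. Summed neuronal markers were 38.0 to 62.7 FPKM in differentiating libraries and 28.5 to 58.8 FPKM in proliferating libraries, with Rbfox3 at most 0.00964 FPKM. Summed oligodendrocyte-lineage markers were 535.9 to 1135 FPKM in differentiating libraries and 716.8 to 1484 FPKM in proliferating libraries. Markers of microglia, endothelium and mesenchyme summed to at most 7.71, 4.66 and 6.54 FPKM in any library, with Cldn5 listed at 0 in all. Of the targeted genes, Fubp1 was at 21.6 FPKM in FUBP1-D, against 24.8 and 25.4 FPKM in NT libraries 7 and GFP-D, and at 34.8 FPKM in FUBP1, against 50.2 FPKM in TRC and 12.4 FPKM in GFP. The lowest Fubp1 level was thus in an NT library, so directions drawn below are those of the library labelled FUBP1. Cic was at 25.6 FPKM in CIC-D, against 42.0 and 35.3 FPKM in 7 and GFP-D, and at 13.3 FPKM in CIC, against 39.4 and 33.8 FPKM in TRC and GFP. In these bulk samples, fewer cells of a type and less RNA per cell cannot be told apart.

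Promoter sequence is shown for 3 genes that fell on differentiation and for Ezh1, which rose, because 1 window of each of these 3 holds a motif of E2F type, whereas those of Ezh1 and of Eed, the other gene that fell, hold none. E2F factors drive many genes of DNA replication. RefSeq promoter windows (GRCm38.p6, 250 bases before the transcript start to 50 after it) were found for all 10 genes, 15 windows in all. They were searched on both strands for TTTCCCGC, TTTCGCGC, TTTGCCGC and TTTGGCGC, motifs picked after the expression values were known. The first 280 bases are printed in gene orientation, with matches in capitals. The Uhrf1 window is chr17:56304063-56304342 on the plus strand, the Dnmt1 window chr9:20952594-20952873 on the minus strand, the Ezh2 window chr6:47595001-47595280 on the minus strand and the Ezh1 window chr11:101226434-101226713 on the minus strand.
Uhrf1: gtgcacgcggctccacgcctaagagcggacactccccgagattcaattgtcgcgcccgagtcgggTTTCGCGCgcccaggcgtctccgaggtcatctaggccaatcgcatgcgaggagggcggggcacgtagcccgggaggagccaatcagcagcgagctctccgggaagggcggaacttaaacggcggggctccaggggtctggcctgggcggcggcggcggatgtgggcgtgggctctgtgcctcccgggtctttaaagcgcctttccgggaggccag
Dnmt1: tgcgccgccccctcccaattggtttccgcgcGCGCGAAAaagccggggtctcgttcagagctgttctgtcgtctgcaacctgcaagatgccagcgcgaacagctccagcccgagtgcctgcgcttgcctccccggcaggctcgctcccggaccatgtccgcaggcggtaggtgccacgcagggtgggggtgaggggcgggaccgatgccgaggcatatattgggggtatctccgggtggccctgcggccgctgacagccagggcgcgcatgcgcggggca
Ezh2: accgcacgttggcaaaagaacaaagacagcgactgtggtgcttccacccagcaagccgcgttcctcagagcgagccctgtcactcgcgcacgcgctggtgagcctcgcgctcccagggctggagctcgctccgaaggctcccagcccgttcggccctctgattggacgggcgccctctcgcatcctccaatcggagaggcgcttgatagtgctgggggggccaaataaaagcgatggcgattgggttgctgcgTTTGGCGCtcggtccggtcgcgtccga
Ezh1: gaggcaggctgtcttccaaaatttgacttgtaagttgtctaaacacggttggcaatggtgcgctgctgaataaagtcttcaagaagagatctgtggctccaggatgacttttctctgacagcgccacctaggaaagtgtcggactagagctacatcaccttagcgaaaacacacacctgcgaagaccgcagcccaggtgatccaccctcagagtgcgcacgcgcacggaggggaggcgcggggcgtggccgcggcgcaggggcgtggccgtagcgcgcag

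A match stood in 3 of the 15 windows, 1 of 2 for Uhrf1, 1 of 3 for Dnmt1 and the 1 for Ezh2, against 744 of all 32851 promoter windows (2.26%) and 615 of the 13006 windows with at least 12 CpG sites (4.73%). Only the matching windows of Uhrf1 and Dnmt1 are printed, and their other windows hold no match. The 3 matching windows hold 33, 33 and 31 CpG sites, so the set with at least 12 is not matched to them. Because the motifs were picked with the expression values known, these shares test no link between motif and expression. The Dnmt1 match printed lies on the opposite strand, 219 to 212 bases before the start, and a further TTTGGCGC lies at bases 34 to 41 after it, beyond the bases shown. The matches did not overlap each other. A match describes letters in a window and not a bound site.

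On differentiation Dnmt1, Uhrf1, Ezh2 and Eed fell, and Ezh1, Tet2 and Dnmt3b rose. Of the 10 genes, 4 were called lower and 3 higher by limma over all 8 libraries, with state and targeted gene as terms, at a Benjamini-Hochberg adjusted p of 0.05 over the 11968 rows that reached 1 FPKM in at least 2 libraries. Of those rows 38.8% were called, 21.2% higher and 17.7% lower, so changed genes were common. At an unadjusted p under 0.05, 7 of the 10 genes and 49.9% of rows passed. The median difference of the 10 genes was 0.05, and that of all rows 0.09, in log2(FPKM + 1). All 10 genes passed the expression filter, Dnmt3b only through the differentiating libraries, so its place among the 3 higher is no separate evidence of direction. Differences below are differentiating minus proliferating on that log2 scale, where low genes appear to change less than they do, and rest on this fit unless another is named.

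**Figure D1:**
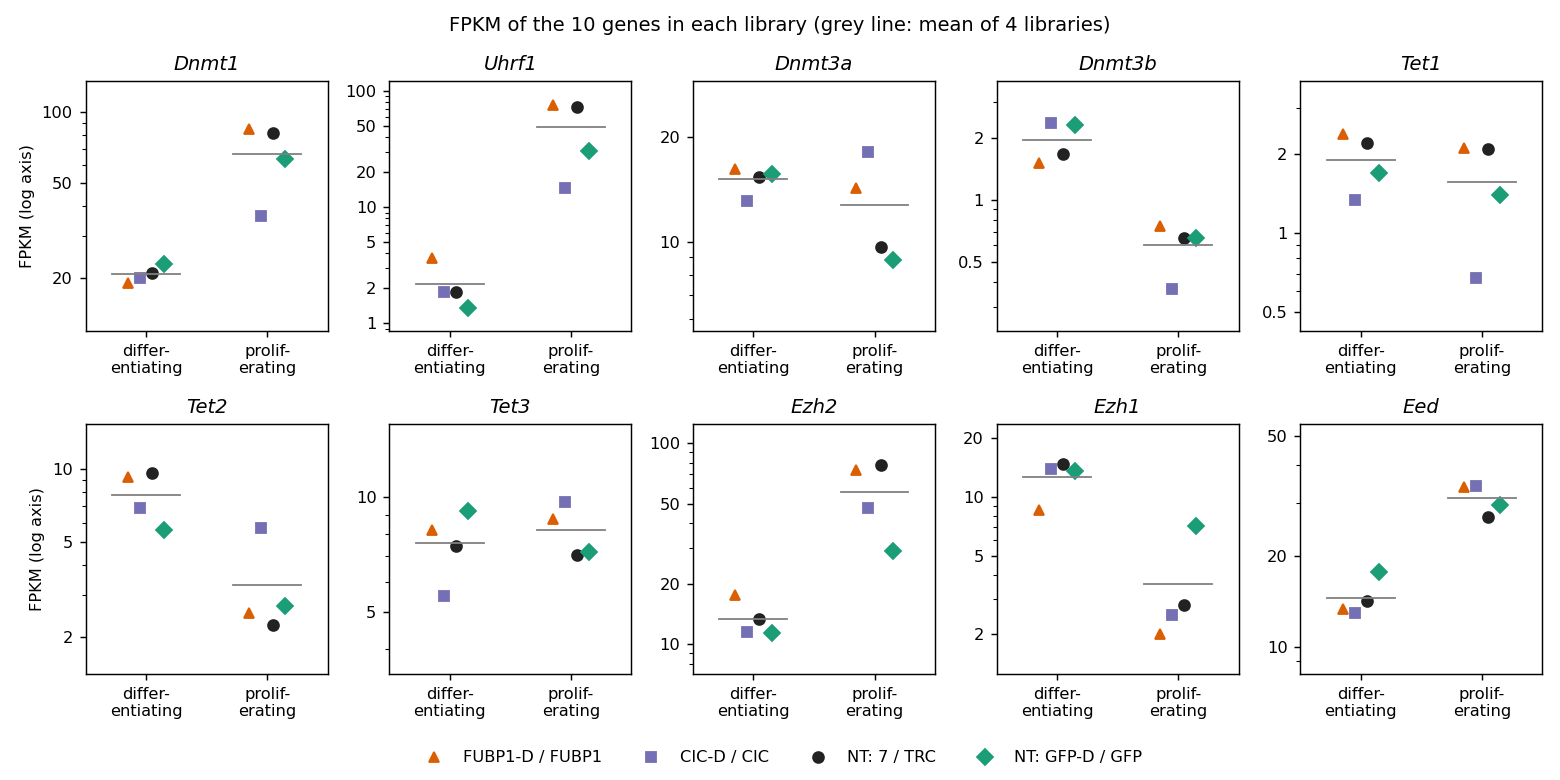
FPKM (log axes, a separate range per panel) of the 10 genes in each library, differentiating at the left of each panel and proliferating at the right, with grey lines at the mean of 4 libraries. Symbols mark the label, with NT libraries 7 and TRC drawn alike and GFP-D and GFP alike, and the states do not overlap for Dnmt1, Uhrf1, Ezh2, Eed, Dnmt3b or Ezh1.

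Dnmt1 (chromosome 9, 20711649 to 20764332, mm9) stood at 19.03, 20.0, 20.9 and 22.8 FPKM in FUBP1-D, CIC-D, 7 and GFP-D, against 84.3, 36.4, 81.8 and 63.2 FPKM in FUBP1, CIC, TRC and GFP. Every differentiating library was below every proliferating one, and the proliferating libraries were much further apart, with CIC lowest. The mean was 20.7 ± 1.61 FPKM in differentiating and 66.4 ± 22.1 FPKM in proliferating libraries (SD, n = 4 each), a difference of -1.57 ± 0.23 (SE; 95% interval -2.10 to -1.04; limma adjusted p = 0.0027).

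Uhrf1 (chromosome 17, 56442759 to 56462909) made the largest change of the 10. It was at 3.64, 1.84, 1.85 and 1.37 FPKM in FUBP1-D, CIC-D, 7 and GFP-D, against 76.3, 14.8, 72.6 and 30.7 FPKM in FUBP1, CIC, TRC and GFP. The states did not overlap, and within the proliferating state the highest library was FUBP1 and the lowest CIC. The mean was 2.18 ± 1.00 FPKM in differentiating and 48.6 ± 30.6 FPKM in proliferating libraries (SD, n = 4 each), and the difference was -3.74 ± 0.38 (SE; 95% interval -4.64 to -2.84; limma adjusted p = 0.000973). Only 0.551% of the 11968 rows had a larger difference in size. For each Dnmt1 FPKM there was 0.0600 to 0.191 Uhrf1 FPKM in differentiating libraries and 0.406 to 0.905 in proliferating libraries, and these ranges did not overlap.

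Of the enzymes that place new methylation, Dnmt3a (chromosome 12, 3806979 to 3914443) was not called. It was at 16.2, 13.1, 15.4 and 15.7 FPKM in FUBP1-D, CIC-D, 7 and GFP-D, against 14.3, 18.2, 9.64 and 8.82 FPKM in FUBP1, CIC, TRC and GFP. The highest and the lowest values were both in proliferating libraries, and the states overlapped (difference 0.28 ± 0.23 SE, 95% interval -0.25 to 0.81; limma adjusted p = 0.352). There was 0.657 to 0.852 Dnmt3a FPKM per Dnmt1 FPKM in differentiating libraries and 0.118 to 0.499 in proliferating libraries.

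Dnmt3b (chromosome 2, 153475184 to 153513466) was scarce in every library. It was at 1.52, 2.37, 1.67 and 2.31 FPKM in FUBP1-D, CIC-D, 7 and GFP-D, against 0.750, 0.366, 0.649 and 0.654 FPKM in FUBP1, CIC, TRC and GFP. All differentiating libraries were higher, with a mean of 1.97 ± 0.436 FPKM, against 0.605 ± 0.166 FPKM in proliferating libraries (SD, n = 4 each). The difference was 0.88 ± 0.22 (SE; limma adjusted p = 0.0176). The call was lost without CIC (0.74, adjusted p = 0.0658) or CIC-D (0.74, adjusted p = 0.0691), with 6 group means (0.89, adjusted p = 0.0605) and under quantile normalization (0.50, adjusted p = 0.117). Dnmt3b passed the expression filter only through the differentiating libraries, so a gene with this pattern had to be higher there to be tested. Its row merges 9 RefSeq transcripts, and the levels of single isoforms were not analysed here.

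Of the Tet enzymes, Tet2 was called and Tet1 and Tet3 were not. Tet2 (chromosome 3, 133126640 to 133207354) was at 9.24, 6.92, 9.59 and 5.59 FPKM in FUBP1-D, CIC-D, 7 and GFP-D, against 2.52, 5.71, 2.25 and 2.70 FPKM in FUBP1, CIC, TRC and GFP. It rose, with a difference of 1.08 ± 0.28 (SE; 95% interval 0.43 to 1.73; limma adjusted p = 0.0204), although the states overlapped because CIC lay just above GFP-D. The call was lost without FUBP1 (adjusted p = 0.0892), FUBP1-D (0.0910), TRC (0.0506) or 7 (0.0529), and under quantile normalization (0.86, adjusted p = 0.0527).

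Tet3 (chromosome 6, 83312367 to 83391672) averaged 7.58 ± 1.57 FPKM in differentiating and 8.18 ± 1.28 FPKM in proliferating libraries (SD, n = 4 each). The lowest library was CIC-D at 5.49 FPKM and the highest CIC at 9.70 FPKM, and the difference was -0.11 ± 0.21 (SE; 95% interval -0.61 to 0.39; limma adjusted p = 0.716), with a sign that turned when CIC or CIC-D was left out. Tet1 (chromosome 10, 62267317 to 62342762) was at 2.39, 1.34, 2.21 and 1.70 FPKM in FUBP1-D, CIC-D, 7 and GFP-D, against 2.11, 0.674, 2.104 and 1.40 FPKM in FUBP1, CIC, TRC and GFP. The libraries labelled CIC were lowest in each state, and the states overlapped (difference 0.21 ± 0.21 SE, 95% interval -0.28 to 0.69; limma adjusted p = 0.451), with a sign that turned under quantile normalization. As a share of summed Tet FPKM, Tet2 made up 33.9% to 50.3% in differentiating libraries and 18.8% to 35.5% in proliferating libraries. Tet3 made up 38.6% to 55.8% in differentiating libraries and 60.3% to 65.4% in proliferating libraries. The sum itself was 13.8 to 19.8 FPKM in differentiating libraries and 11.3 to 16.1 FPKM in proliferating libraries, which overlap.

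**Figure D2:**
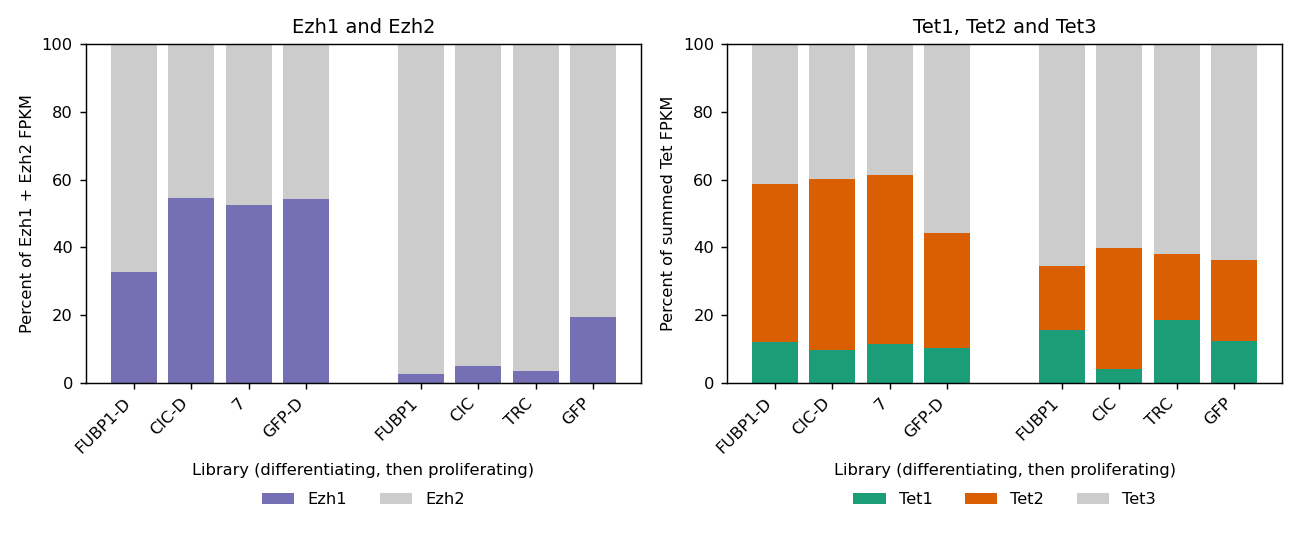
Percent of summed Ezh1 and Ezh2 FPKM (left) and of summed Tet1, Tet2 and Tet3 FPKM (right) held by each gene in each library, differentiating libraries first. Ezh1 holds 32.7% to 54.7% in differentiating libraries and 2.64% to 19.5% in proliferating libraries, and Tet2 holds 33.9% to 50.3% and 18.8% to 35.5%.

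Among PRC2 subunits, the alternative catalytic forms moved in opposite directions. Ezh2 (chromosome 6, 47480272 to 47545029) was at 17.6, 11.4, 13.3 and 11.3 FPKM in FUBP1-D, CIC-D, 7 and GFP-D, against 73.5, 47.4, 77.7 and 29.2 FPKM in FUBP1, CIC, TRC and GFP. The states did not overlap, with GFP the lowest proliferating library. The difference was -1.93 ± 0.29 (SE; 95% interval -2.61 to -1.25; limma adjusted p = 0.0032).

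Ezh1 (chromosome 11, 101052428 to 101087764) was at 8.56, 13.8, 14.6 and 13.5 FPKM in FUBP1-D, CIC-D, 7 and GFP-D, against 1.99, 2.51, 2.81 and 7.07 FPKM in FUBP1, CIC, TRC and GFP. All differentiating libraries were higher, and in each state the library labelled FUBP1 was lowest. The difference was 1.66 ± 0.27 (SE; 95% interval 1.02 to 2.29; limma adjusted p = 0.0041). On this per-length scale, Ezh1 made up 32.7% of Ezh1 plus Ezh2 in FUBP1-D and 52.4% to 54.7% in the other differentiating libraries, against 2.64%, 5.03%, 3.49% and 19.5% in FUBP1, CIC, TRC and GFP.

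Eed (chromosome 7, 97103163 to 97129486) fell least among the 4. It was at 13.4, 12.9, 14.2 and 17.6 FPKM in FUBP1-D, CIC-D, 7 and GFP-D, against 33.8, 34.1, 26.8 and 29.5 FPKM in FUBP1, CIC, TRC and GFP. The states did not overlap, and the spread within each was small. The difference was -1.05 ± 0.18 (SE; 95% interval -1.47 to -0.63; limma adjusted p = 0.0049). The sum of Ezh1 and Ezh2 stood at 1.82 ± 0.278 times Eed in differentiating libraries and 1.98 ± 0.806 times Eed in proliferating libraries (SD, n = 4 each).

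Over the 10 genes, states did not overlap in 6, of which 4 were lower and 2 higher in all differentiating libraries. The same held for 38.0% of all rows tested, 17.8% lower and 20.1% higher. Of the 2 higher genes, Dnmt3b passed the expression filter only through the differentiating libraries. The 4 lower calls and that of Ezh1 held under every alternative tried, with adjusted p from limma of at most 0.0316, whereas those of Dnmt3b and Tet2 did not.

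Among the rows tested in each library, Dnmt1 stood at percentiles 60.4 to 66.1 in differentiating libraries and 77.8 to 91.2 in proliferating libraries. Uhrf1 stood at percentiles 8.0 to 17.1 in differentiating libraries and 54.7 to 90.1 in proliferating libraries, and Ezh2 at 43.3 to 58.0 and 73.3 to 90.2. In mean FPKM, the order in differentiating libraries was Dnmt1, Dnmt3a, Eed, Ezh2, Ezh1, Tet2, Tet3, Uhrf1, Dnmt3b and Tet1, and neighbours from Dnmt3a to Ezh1, the pair Tet2 and Tet3, and the last 3 differed by less than the smaller of their SDs. In proliferating libraries it was Dnmt1, Ezh2, Uhrf1, Eed, Dnmt3a, Tet3, Ezh1, Tet2, Tet1 and Dnmt3b, and the first 3, and Ezh1 with Tet2, differed by less than the smaller of their SDs.

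The 4 genes that fell were set beside 30 replication and S phase genes, since Dnmt1 and Uhrf1 act at replication. All 30 fell, between -4.94 for Mcm5, a subunit of the replicative helicase, and -1.16 for E2f1, with a median of -2.54. Of these, 3 fell further than Uhrf1, 26 further than Ezh2, 27 further than Dnmt1 and all 30 further than Eed. The mean log2(FPKM + 1) of the list was 2.27, 1.96, 2.11 and 2.12 in FUBP1-D, CIC-D, 7 and GFP-D, against 5.35, 3.82, 5.34 and 4.59 in FUBP1, CIC, TRC and GFP. Proliferating libraries were thus not alike in this list, with CIC lowest, GFP next and the other two level. Uhrf1 and Dnmt1 had the same order over proliferating libraries as the list mean, whereas Ezh2 was lowest in GFP and Eed was highest in CIC.

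Uhrf1 minus the list mean was -0.88 to -0.06 in differentiating libraries and 0.15 to 0.92 in proliferating libraries. Dnmt1 minus the list mean was 2.05 to 2.45 in differentiating libraries and 1.03 to 1.41 in proliferating libraries, so Dnmt1 kept a higher level relative to these genes after differentiation. The same difference for Eed was 1.57 to 2.10 in differentiating libraries and -0.54 to 1.31 in proliferating libraries. For Ezh2 it was 1.5 to 1.95 in differentiating libraries and 0.32 to 1.77 in proliferating libraries, which overlap. The part of the list's level in the differences between libraries was not tested.

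**Figure D3:**
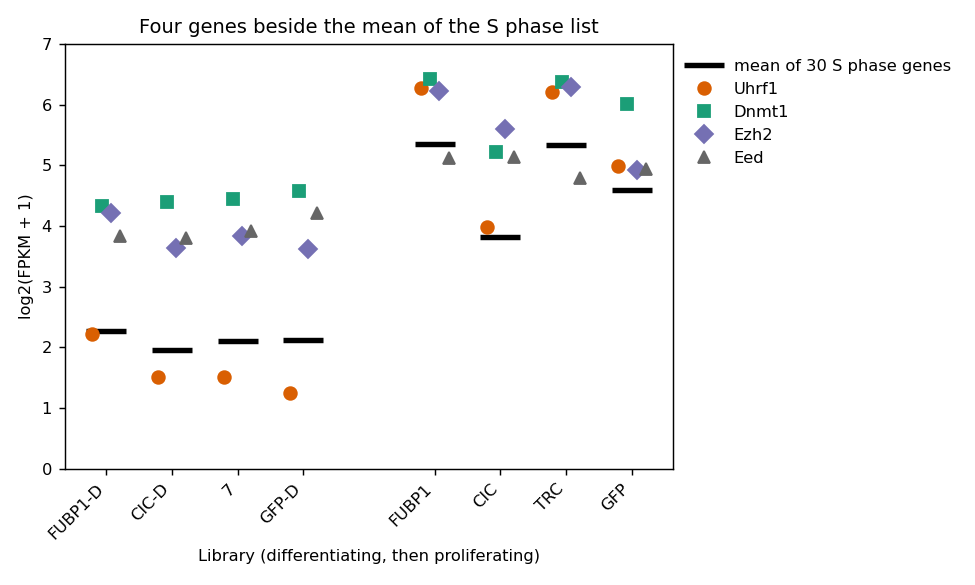
Log2(FPKM + 1) of Uhrf1, Dnmt1, Ezh2 and Eed and the mean of 30 S phase genes (black bars) in each library, differentiating libraries at the left. Uhrf1 lies below the bar in all 4 differentiating libraries and above it in all 4 proliferating libraries, and Dnmt1 lies above it in all 8.

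Within the NT libraries alone, where 7 and GFP-D were set against TRC and GFP in a fit with a mean for each of the 6 groups, Uhrf1 was the single gene of the 10 that was called. Its difference was -4.22 ± 0.46 (SE; limma adjusted p = 0.0435), and 1.46% of rows were called, 0.577% higher and 0.886% lower. That call was lost without TRC (adjusted p = 0.120), 7 (0.184) or GFP-D (0.215), with a pseudocount of 5 (0.0648) and without the expression filter (0.158). The NT differences of the others called over all libraries had the same sign: -1.68 for Dnmt1 (adjusted p = 0.0549), -1.88 for Ezh2 (0.103), -0.79 for Eed (0.154), 1.44 for Ezh1 (0.128), 1.27 for Tet2 (0.117) and 0.85 for Dnmt3b (0.205). At an unadjusted p under 0.05, 7 of the 10 genes passed, against 26.1% of rows. Dnmt3a was among these, although not called over all libraries, with an NT difference of 0.69 (limma unadjusted p = 0.0422, adjusted p = 0.178). Dnmt3b was not among them (limma unadjusted p = 0.0569). The NT differences share libraries with the fit over all 8 and are not a separate check of it.

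The NT libraries differed between themselves in some of the genes. In the differentiating pair, GFP-D minus library 7 was -0.69 for Tet2 on the log2 scale, against a median size of 0.302 over all rows tested. The next largest of the 10 in that pair was Dnmt3b at 0.31. GFP minus TRC was -1.38 for Ezh2, -1.22 for Uhrf1 and 1.08 for Ezh1 on the log2 scale, against a median size of 0.416 over all rows tested, and at most 0.37 in size for the other 7. Without GFP, which leaves TRC as the single proliferating NT library, Ezh2 in NT libraries differed by -2.57. With a library left out this difference ranged from -2.57 to -1.19.

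**Figure D4:**
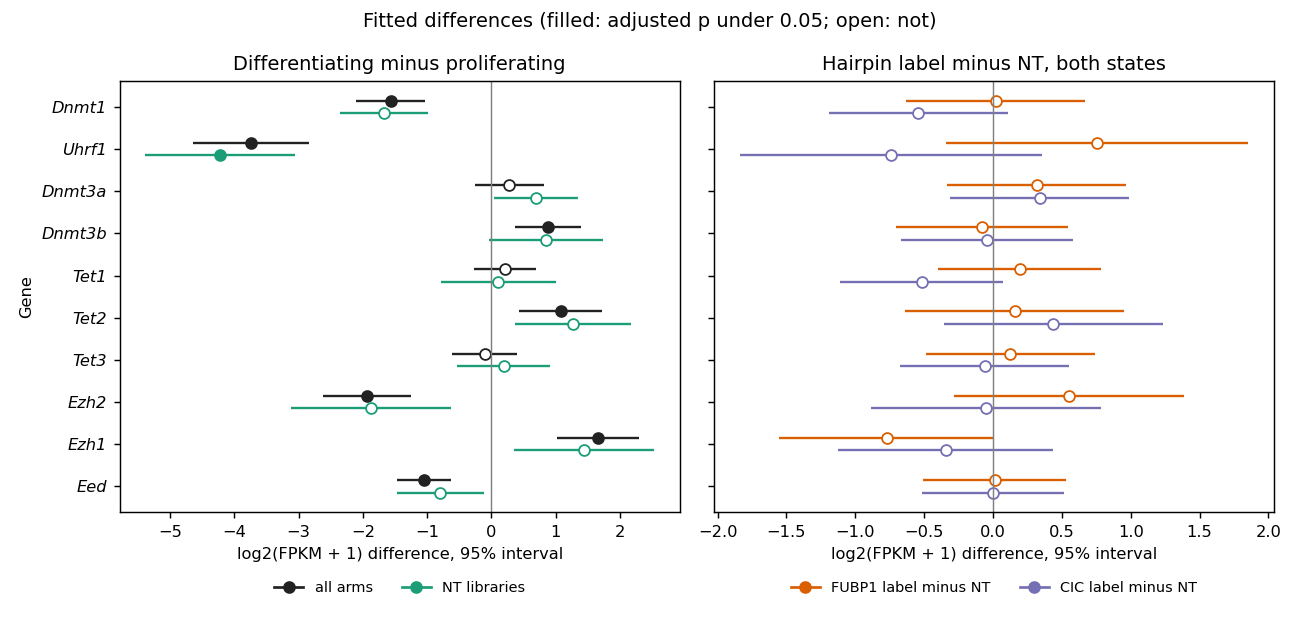
Fitted log2(FPKM + 1) differences with 95% intervals for the 10 genes: differentiating minus proliferating over all arms or NT libraries (left), and FUBP1 or CIC label minus NT over both states (right). Filled points passed an adjusted p of 0.05: 7 over all arms, Uhrf1 in NT libraries, and none for either label.

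For the libraries labelled FUBP1 against NT, with state as a term, limma called 0 of the 10 genes and 0 of 11968 rows (0.0%) at the adjusted threshold. At an unadjusted p under 0.05 it called 256 rows (2.14%) and 0 of the 10. The nearest was Ezh1, with 8.56 FPKM in FUBP1-D, against 14.6 and 13.5 FPKM in 7 and GFP-D, and 1.99 FPKM in FUBP1, against 2.81 and 7.07 FPKM in TRC and GFP. It lay below both NT libraries in both states, at 61.0% of the NT mean in differentiating and 40.3% in proliferating cells, with a difference of -0.77 ± 0.33 (SE; 95% interval -1.55 to 0.01; limma adjusted p = 0.999). In FUBP1-D, 4 of the 10 lay above both NT libraries and 4 below both, against 34.9% and 28.3% of rows, and in FUBP1 7 lay above both and 1 below both, against 26.7% and 27.7%. Uhrf1, Dnmt3a and Tet1 lay above both NT libraries in both states, which 11.0% of rows did, while 9.33% lay below in both as Ezh1 did. The smallest margins of these 3 were narrow on the log2 scale. Tet1 in FUBP1 lay 0.0029 above TRC, Uhrf1 in FUBP1 0.0703 above TRC, and Dnmt3a in FUBP1-D 0.0433 above GFP-D. The intervals for Uhrf1 (0.76, -0.34 to 1.85), Dnmt3a (0.32, -0.33 to 0.97) and Dnmt1 (0.02, -0.63 to 0.67) span changes in both directions.

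For the libraries labelled CIC, limma called 13 rows (0.109%; 0.0167% higher, 0.0919% lower) and 0 of the 10 genes, with 1368 rows (11.4%) and 0 of the 10 at an unadjusted p under 0.05. In the single proliferating library labelled CIC, Uhrf1 was at 28.6%, Tet1 at 38.5% and Dnmt1 at 50.2% of the mean of TRC and GFP, and Tet2 at 231.1% and Dnmt3a at 196.7%. Ezh1 there was at 2.51 FPKM, close to 2.81 FPKM in TRC and below 7.07 FPKM in GFP. There 4 of the 10 lay above both NT libraries and 5 below both, against 31.4% and 39.9% of all rows. In CIC-D, 1 lay above both and 5 below both, against 30.8% and 34.1% of rows. Dnmt1 and Tet1 lay below both NT libraries in both states, as 17.7% of rows did, with differences of -0.54 (95% interval -1.19 to 0.11; limma adjusted p = 0.486) and -0.52 (95% interval -1.11 to 0.07; adjusted p = 0.473). These deviations accompany the low S phase level of the proliferating CIC library, and its part in them was not tested.

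Whether a label changed the response to differentiation was tested as an interaction in the fit of 6 group means, whose spread rests on the NT libraries alone. limma called 0 of 11968 rows for either label, with 99 rows (0.827%) for FUBP1 and 512 (4.28%) for CIC at an unadjusted p under 0.05, and 0 of the 10 genes. For CIC, Dnmt3a came nearest, with an estimate of -1.13 (95% interval -2.28 to 0.01): between CIC-D and CIC it differed by -0.44, against 0.62 between 7 and TRC and 0.77 between GFP-D and GFP. Uhrf1 differed by -4.06 between FUBP1-D and FUBP1 and -2.47 between CIC-D and CIC, against -4.69 between 7 and TRC and -3.74 between GFP-D and GFP.

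Partner genes were described from 4 pathway lists, over all 8 libraries, and the counts called stand beside the 38.8% of all rows called. The shares called were 47.1% for DNA methylation, 41.2% for demethylation, 58.3% for PRC2 and 21.7% for PRC1 and PR-DUB. Of 17 tested partners of DNA methylation, 3 rose and 5 fell, with a median of -0.07. Hells, a chromatin remodeller needed for methylation of repeats, averaged 2.65 ± 0.887 FPKM in differentiating and 24.2 ± 11.8 FPKM in proliferating libraries (SD, n = 4 each; difference -2.69), and Pcna, the replication clamp that Dnmt1 binds, 49.3 ± 3.70 and 274.8 ± 127.7 FPKM (difference -2.31). Mbd1, a reader of methylated CpG, rose, with 78.8 ± 27.5 FPKM in differentiating and 19.8 ± 8.64 FPKM in proliferating libraries (SD, n = 4 each; difference 1.95), as did Mbd4 (1.03) and Zbtb4 (0.85), the last not called under quantile normalization. Dnmt3l, the cofactor of the new-methylation enzymes in germ cells, was at most 0.296 FPKM and listed at 0 in all proliferating libraries.

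Of 17 tested partners of demethylation, 3 rose and 4 fell, with a median of 0.01. Tdg, the glycosylase that removes oxidised methylcytosine, averaged 3.37 ± 1.49 FPKM in differentiating and 13.9 ± 1.99 FPKM in proliferating libraries (SD, n = 4 each; difference -1.83), and the base excision genes Ung (-1.74), Apex1 (-1.64) and Xrcc1 (-0.71) also fell. Parp1 (-0.61), Lig3 (-0.10), Polb (0.13), Smug1 (0.01) and Neil1 (0.49), of the same repair pathway, were not called. Ogt, a glycosyltransferase that binds Tet proteins, averaged 142.8 ± 17.6 FPKM in differentiating and 55.7 ± 16.0 FPKM in proliferating libraries (difference 1.38), and Gadd45b (1.71) and Idh2 (0.79) also rose.

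Of 12 genes on the PRC2 list, 3 rose and 4 fell, with a median of -0.42. This list also holds the histone demethylases Kdm6a, Kdm6b and Kdm2b, which are not subunits of PRC2. Suz12, the core subunit beside Eed, averaged 16.6 ± 1.26 FPKM in differentiating and 46.0 ± 8.92 FPKM in proliferating libraries (SD, n = 4 each; difference -1.40), and E130012A19Rik, also named Epop, differed by -1.34, Rbbp7 by -0.81 and Rbbp4 by -0.53, the last not called under quantile normalization. Jarid2, an accessory subunit that brings PRC2 to its targets, averaged 14.7 ± 4.43 FPKM in differentiating and 5.22 ± 1.26 FPKM in proliferating libraries (difference 1.31), with Phf1 (1.08) and the demethylase Kdm6a (0.67) also higher. Of 23 members of PRC1 and the deubiquitinase complex PR-DUB, 3 rose and 2 fell, with a median of 0.15: Cbx7, a reader of the PRC2 mark, averaged 13.7 ± 7.02 FPKM in differentiating and 2.68 ± 1.63 FPKM in proliferating libraries (difference 1.93), Phc3 (0.84) and Scmh1 (0.55) also rose, Scmh1 not being called under quantile normalization or median-of-ratios rescaling, and L3mbtl2 (-1.38) and Rybp (-0.98) fell.

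**Figure D5:**
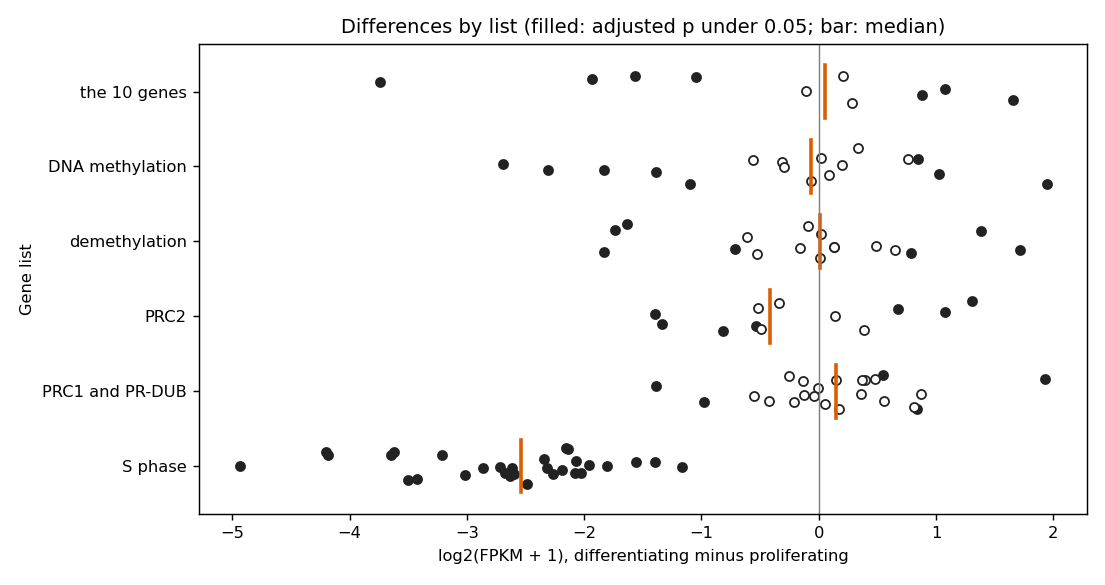
Differentiating minus proliferating difference in log2(FPKM + 1) for each tested gene of the 10 and of 5 lists, with the list median as a bar and filled points for an adjusted p under 0.05. The S phase genes all lie below 0, whereas the 10 genes and the 4 pathway lists spread to both sides.

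For either label, limma called 0 genes of these lists at the adjusted threshold. The S phase list had a median of 0.26 for FUBP1 label minus NT, with 27 of 30 positive, against 6420 of all 11968 rows. For CIC label minus NT the median was -0.58, with 1 of 30 positive, against 5461 of all rows. These medians join both states, which were not alike. In list mean, FUBP1 (5.35) was level with TRC (5.34) and above GFP (4.59), and FUBP1-D was at 2.27. CIC was at 3.82, below TRC and GFP, and CIC-D at 1.96, against 2.11 and 2.12 in 7 and GFP-D.

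The rows whose pattern over the 8 libraries was most like that of each of the 10 were found by root mean square distance in log2(FPKM + 1), after each row was centred on its own mean. Likeness of level was therefore not used, and genes of very different FPKM can lie close. For Dnmt1 the nearest was Pola2, a subunit of the primase complex, at 0.12, and for Uhrf1 they were Fignl1 and Asf1b, a histone chaperone, at 0.28 each. Ezh2 lay nearest to Mtfr2 and Rcc1 (0.13 each), Ezh1 to Fbxl20 and Txndc16 (0.18 each), Eed to Ciapin1 (0.12), Tet2 to Kidins220 (0.11) and Tet3 to Anks1 and Dnd1 (0.11 each). Dnmt3a lay nearest to Slc25a47 (0.13), Dnmt3b to Hps3 (0.07) and Tet1 to Gm608 (0.06). Among the 10 themselves, Dnmt3a and Tet3 were 0.27 apart and Dnmt1 and Ezh2 0.47.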

How the data were processed

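Per the labels' protocols, 1 ug of Trizol-extracted total RNA was made into TruSeq libraries for each sample. The authors deposited 1 FPKM value per gene and library; per the submitters' processing notes, bcl2fastq 2.17, cutadapt, TopHat2 2.0.11, Cufflinks 2.1.1 and mm9 were used, with settings and strand handling not given in the sources used here. FPKM sums ran from 426984 to 541608 per library, read depth is unknown, and whole reads could not be recovered.

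From these values, rows with at least 1 FPKM in at least 2 of 8 libraries were kept and log2(FPKM + 1) was fitted in limma 3.58.1 (R 4.3.3) with a mean-variance trend, two-sided, adjusted over 11968 rows. State and targeted gene were additive terms with 4 residual degrees of freedom; a fit of 6 group means, with 2, gave the NT comparison and the interactions. All 10 genes are named; list genes were named by call and size of difference. The genes, lists and tests were chosen with earlier results of these data known. Promoter sequences are from RefSeq. Other pseudocounts, filters, scalings, arms and left-out libraries were tried.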

Additional observations from a re-analysis of the deposited data

Results flagged for a closer look

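Of 20 sets of 4 libraries (10 genes in 2 states), 2 held a library whose gap to its neighbour exceeded Dixon's 95% critical value. Chance gives this in about 1 of 20 sets. The gaps were taken in FPKM and not on the log2 scale of the fits, where high values stand out less. Tet2 was at 5.71 FPKM in the proliferating library CIC, against 2.25 to 2.70 FPKM in the other proliferating libraries. Ezh1 was at 7.07 FPKM in the proliferating NT library GFP, against 1.99 to 2.81 FPKM in the others. The same libraries had the lowest mean of the S phase list among proliferating libraries, 3.82 in CIC and 4.59 in GFP in log2(FPKM + 1), and the part of that in these values was not tested. The states of Tet2 overlapped only through its value in CIC, which lay just above the 5.59 FPKM of GFP-D.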

How the results depend on the processing

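For differentiation over all arms, 4 of the 10 genes stayed called lower under all 17 alternatives. The 3 higher became 1 under quantile normalization and 2 to 3 with a library left out. The 4647 rows called became 2906 with 6 group means, 5119 with the GFP-named libraries as an arm, and 2482 to 4863 with a library left out. Tet1 turned to -0.13 under quantile normalization, and Tet3 to 0.0792 without both GFP and CIC, an alternative chosen after seeing the data, and ranged from -0.22 to 0.10 with a library left out. In NT libraries the 175 rows called became 277 under quantile normalization, 0 with a pseudocount of 5, 0 without the filter and 0 to 480 with a library left out; the 1 gene lower became 0 under either of those settings, and 0 to 2 with a library left out. NT Tet1 turned to -0.18 under quantile normalization and ranged from -0.076 to 0.29.

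For the FUBP1 label, signs turned for Eed (-0.0245 under quantile normalization, -0.0017 under median-of-ratios, -0.14 to 0.17 with a library left out), Dnmt1 (-0.0412 with the GFP arm, -0.33 to 0.37), Dnmt3b (-0.32 to 0.16) and Tet2 (-0.15 to 0.47). For the CIC label, the 13 rows called became 35 with a pseudocount of 0.1, 4 with 5, 2 without the filter and 2 to 18 with a library left out. Signs turned there for Dnmt3b (0.0016 with a pseudocount of 5, 0.19 under quantile normalization, 0.0321 with the GFP arm, -0.33 to 0.23), Eed (0.012 with a pseudocount of 5, 0.0268 under median-of-ratios, 0.11 with the GFP arm, -0.19 to 0.19) and Tet3 (0.0196 under quantile normalization, 0.0165 with the GFP arm, -0.47 to 0.35), and with a library left out for Ezh2 (-0.34 to 0.21), Uhrf1 (-1.59 to 0.10), Dnmt3a (-0.14 to 0.82) and Tet2 (-0.12 to 1.00). None of these was called, and the cause was not tested. The labels give no replicate numbers to block on. The fit with the GFP-named libraries as an arm, which leaves TRC with 7, pairs the 8 libraries by name across states, and it kept all 7 calls for differentiation. Leaving out a FUBP1 or CIC library left its interaction without an estimate.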
